A study of Mus musculus with 18 samples.

Results

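The 10 genes described here were listed as mucus proteins and maturation factors of intestinal goblet cells: Muc2, Fcgbp, Clca1, Zg16, Tff3, Agr2, Spink4, Guca2a, Spdef and Creb3l1. Among them Guca2a encodes a hormone precursor. The 10 genes were chosen by symbol, and each was found once among the 55487 rows of a gene count table. The counts came from mouse small intestinal organoids, which are crypt-derived epithelial cultures. The organoids came from female wild-type C57BL/6 mice and were exposed for 4 days to 1 µM norepinephrine, an agonist of α- and β-adrenergic receptors, or to 1 µM UK 14,304, an α2-adrenergic receptor agonist. The 18 RNA-seq libraries fall into 5 norepinephrine libraries (m1 to m5), 4 libraries of its HCl vehicle (m1 to m4), 5 UK 14,304 libraries (m1 to m5) and 4 libraries of its DMSO vehicle (m1 to m4). No group carried a gene deletion or transgene. The labels do not say whether an m number is a mouse, an organoid line or a day of culture. P-values therefore do not stand for a known spread between mice. In fits with the m number as a block, they measure the spread between these libraries that is left after group and number are fitted. Organoids of this kind are grown from epithelium, without the nerves, immune cells, muscle and bacteria of the intestine.

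Goblet cells fill their apex with granules of Muc2, a gel-forming mucin that is folded in the endoplasmic reticulum, densely decorated with O-linked sugars in the Golgi and released to form the mucus layer. Agr2, a protein disulfide isomerase of the endoplasmic reticulum, is needed to make the mucin. Fcgbp, Clca1, Zg16 and Tff3 are secreted with it and become parts of the gel. The transcription factor Spdef drives goblet cell maturation, and Creb3l1 is a transcription factor that is held in the endoplasmic reticulum membrane until it is cleaved.

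The libraries held between 21866149 and 27850373 assigned counts. Levels are given in CPM, counts scaled to a common library size after TMM normalization, a correction for differences in composition between libraries. The epithelial markers Epcam, Vil1, Cdh1, Krt8 and Krt18 each had at least 11634 counts in every library. Of the listed non-epithelial markers, Col1a1 had 1 to 5 counts, Col1a2 0 to 2 and Acta2 0 to 5. Ptprc had 8 to 33, Pecam1 9 to 24 and Vim 152 to 237 counts. One row, a ribosomal RNA gene, took 0.313 to 3.06% of the counts. It was at or above 1.83% in 7 libraries, among them 3 of the 4 DMSO libraries (2.41, 2.61 and 3.06% against 0.351% in m4) and 1 of the 5 UK 14,304 libraries (1.97% in m1). The norepinephrine m4 library stood apart from those of m1 to m3: 8 of the 10 members were higher in it than in HCl m4, against 2, 1 and 0 of 10 in m1, m2 and m3. Calls after norepinephrine are therefore given with and without it. The label of this library was not checked against its values.

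All 10 members were detected in every library, from 285 counts for Spdef to 81943 for Fcgbp, and all 10 passed the filter on low counts. Per kilobase of exon, Spink4 had the highest mean level over the 18 libraries, 540.2 ± 88.3 CPM per kb (SD, n = 18), followed by Tff3 with 443.5 ± 62.1 CPM per kb. Spink4 encodes a small secreted protein of the Kazal protease inhibitor family, and Tff3 a trefoil peptide that takes part in epithelial repair. Fcgbp came next with 222.6 ± 46.5, then Zg16 with 175.4 ± 38.0, Agr2 with 160.6 ± 12.8 and Guca2a, the precursor of the peptide hormone guanylin, with 124.3 ± 35.5 CPM per kb. Below these stood Clca1 with 61.8 (from 35.4 to 111 over the libraries) and Muc2 with 37.4 ± 4.27 CPM per kb. The 2 transcription factors were lowest, Creb3l1 at 16.3 ± 2.08 and Spdef at 6.86 ± 0.775 CPM per kb. Only 3 steps in this order separated neighbours in all libraries: Tff3 (lowest library 338.8) from Fcgbp (highest 313.3), Muc2 (lowest 31.1) from Creb3l1 (highest 22.1), and Creb3l1 (lowest 14.1) from Spdef (highest 8.14 CPM per kb). The other neighbours overlapped. Reads that map to several places were not counted, and how many reads of the repeated mucin domain of Muc2 this left out was not tested.

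On mouse build GRCm38 the members lie on 6 chromosomes. Muc2 is at chr7:141690340-141754693 (plus strand), Fcgbp at chr7:28071236-28120862 (plus) and Zg16 at chr7:127050156-127087328 (minus). Spink4 at chr4:40920052-40931395 (plus) and Guca2a at chr4:119637704-119639471 (plus) share chromosome 4, and Tff3 at chr17:31125306-31129646 (minus) and Spdef at chr17:27714352-27728955 (minus) share chromosome 17. Agr2 is at chr12:35992907-36004087 (plus), Clca1 at chr3:145003817-145032776 (minus) and Creb3l1 at chr2:91982328-92024502 (minus). Counting did not use strand and left out reads that fall in several genes. The span of Zg16 overlaps 2 genes on the opposite strand, Gm22747 and Gm44939, and reads in any shared exon were not counted. Whether exons are shared was not tested. Fcgbp shares a stretch of 68 bases at 95% identity or more with Gm38043, and no other member had a near-identical stretch of 50 bases or more in another gene.

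Promoter sequences, taken from RefSeq on GRCm38.p6 as 250 bases before to 50 after the annotated start, were given for 5 of the 10 members. They are printed for Agr2, the member that passed the test below, and for Fcgbp and Guca2a, whose levels ran opposite to each other between m numbers. Each is written 5′ to 3′ on the strand of the gene. Capitals mark matches to 4 motifs, each searched on both strands. The E-box motif, a site type of basic helix-loop-helix factors, was CAGCTG. The core of the unfolded protein response element was ACGTG. The forkhead motif, of the family that includes the Foxa factors, was TGTTTAC. The TATA box was TATAAA.
Agr2, chr12:35992675-35992974, plus strand: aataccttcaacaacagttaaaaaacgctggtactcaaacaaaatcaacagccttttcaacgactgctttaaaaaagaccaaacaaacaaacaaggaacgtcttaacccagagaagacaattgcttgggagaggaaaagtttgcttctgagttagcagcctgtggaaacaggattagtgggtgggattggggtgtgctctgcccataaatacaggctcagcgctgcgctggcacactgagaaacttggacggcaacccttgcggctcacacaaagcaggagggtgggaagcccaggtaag
Fcgbp, chr7:28070986-28071285, plus strand: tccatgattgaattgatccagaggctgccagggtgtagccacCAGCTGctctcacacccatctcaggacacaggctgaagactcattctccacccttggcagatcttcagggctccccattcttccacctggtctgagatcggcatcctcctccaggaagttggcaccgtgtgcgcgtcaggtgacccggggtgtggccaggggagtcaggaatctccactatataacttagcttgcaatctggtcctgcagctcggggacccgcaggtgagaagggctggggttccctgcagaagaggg
Guca2a, chr4:119637482-119637781, plus strand: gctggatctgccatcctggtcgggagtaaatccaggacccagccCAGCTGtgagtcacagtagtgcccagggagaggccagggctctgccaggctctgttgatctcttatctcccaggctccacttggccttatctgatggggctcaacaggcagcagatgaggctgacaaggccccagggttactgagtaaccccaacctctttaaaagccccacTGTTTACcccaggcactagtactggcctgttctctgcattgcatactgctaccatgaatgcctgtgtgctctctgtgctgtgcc
Fcgbp and Guca2a each held CAGCTG once, at positions 43 and 45 of the 300 bases, as did Muc2 at position 139. Of 32851 promoters of this length, 16.3% held that motif. Guca2a also held TGTTTAC, which was in 3.65% of promoters, Muc2 held TATAAA (13.6%) and Spdef held ACGTG (19.6%). None of the 4 motifs was in the Agr2 window.

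**Figure D1:**
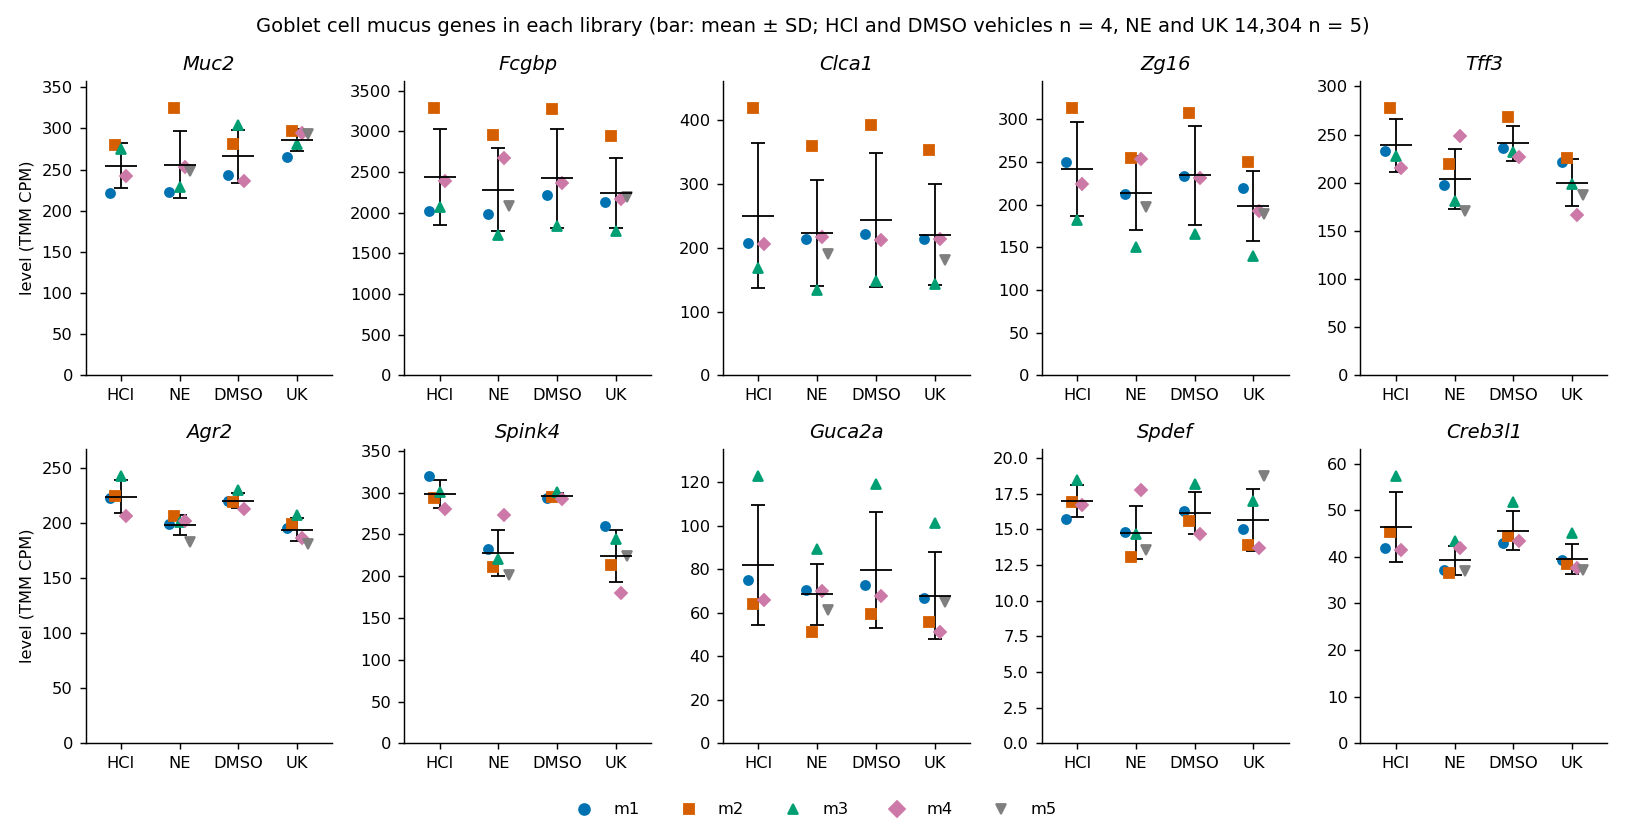
Level of each of the 10 members in every library, in TMM CPM on linear axes from 0, by group (HCl and DMSO vehicles, n = 4 each; NE, norepinephrine, and UK, UK 14,304, n = 5 each), with symbols for the m number and bars for the mean ± SD. Spink4 lies lower in both agonist groups than in their vehicles, while Clca1 and Guca2a differ more between m numbers than between groups.

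The first comparison asked how each agonist changed the members against its own vehicle. Differences were tested with edgeR's quasi-likelihood test in 1 model over all 18 libraries with the m number as a block, with Benjamini-Hochberg adjustment over 15247 genes and a threshold of 0.05. Agr2 fell after UK 14,304, and it was the 1 member of 10 past the threshold in that comparison, against 1.22% of all genes tested in either direction and 1.04% that fell. No member passed after norepinephrine, against 0.105% of all genes tested, but 6 of 10 had an unadjusted p under 0.05 there, against 8.4% of all genes. After UK 14,304 the same unadjusted threshold was met by 6 of 10, against 14.8% of all genes. In both comparisons 9 of 10 members had a log2 fold change below 0, with a median of -0.17 each, against a median of -0.01 and 0.00 over all genes tested, of which 52.7% and 51.3% were below 0. In bulk RNA, fewer goblet cells, less RNA per goblet cell and a change in other cells that hold these RNAs cannot be told apart.

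Agr2 had 219, 219, 230 and 213 CPM in DMSO m1 to m4. In UK 14,304 m1 to m5 it had 196, 199, 207, 186 and 181 CPM. Every UK 14,304 library was thus below every DMSO library, as was the case for 1.78% of all genes tested. The log2 fold change of Agr2 was -0.16 (SE 0.0359, edgeR adjusted p = 0.0324), and the within-number log2 ratios were close to each other, from -0.19 to -0.14. The call was not a firm one: edgeR's adjusted p was 0.26 without the block (log2 fold change -0.18), 0.11 with the ribosomal RNA share as a covariate (-0.16) and 0.153 with the length trend removed (-0.10). It was also lost when any 1 of DMSO m1 to m4, HCl m1 or m2, UK 14,304 m1 to m3 or norepinephrine m1 was left out (edgeR adjusted p from 0.0535 to 0.127), with log2 fold changes of -0.17 to -0.15. After norepinephrine Agr2 was at 199, 206, 201, 201 and 183 CPM, against 222, 224, 243 and 206 in HCl m1 to m4. Norepinephrine m2 (206.2) lay just above HCl m4 (205.9), the only overlap, and the log2 fold change of -0.15 (SE 0.0359) did not pass the test (edgeR adjusted p = 0.255).

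Spink4 had the lowest fold changes of the 10 members. It stood at 320.3, 293, 301 and 280.0 CPM in HCl m1 to m4 and at 233, 212, 221, 273 and 202 CPM in norepinephrine m1 to m5. In DMSO m1 to m4 it had 294, 295, 301 and 292 CPM, and in UK 14,304 m1 to m5 it had 259.9, 214, 244, 179.6 and 224 CPM. Both agonist groups lay below their vehicles with no overlap, which held for 0.78% of all genes tested after norepinephrine and 1.78% after UK 14,304. Even so, the log2 fold changes of -0.37 (SE 0.0891, edgeR adjusted p = 0.301) and -0.38 (SE 0.0895, adjusted p = 0.0548) missed the threshold in the model over all libraries. The 4 DMSO values were close to each other, whereas the agonist libraries of m4 were far apart, at 273 CPM for norepinephrine and 179.6 CPM for UK 14,304. Without UK 14,304 m4, Spink4 passed after both agonists (log2 fold changes of -0.35 and -0.28, edgeR adjusted p = 0.0121 and 0.0359), and without UK 14,304 m1 it passed after UK 14,304 (-0.42, 0.0442). Spink4 passed after UK 14,304 with DESeq2 and the block (log2 fold change -0.38, adjusted p = 0.0011), with gene length trends removed (-0.30, edgeR adjusted p = 0.0312) and with GC trends removed (-0.35, edgeR adjusted p = 0.0352).

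Tff3 followed the same order at smaller size. It had 233, 278, 228 and 215 CPM in HCl m1 to m4, and 198, 219, 181, 249 and 171 CPM in norepinephrine m1 to m5. In DMSO m1 to m4 it had 236, 268, 232 and 227 CPM, and in UK 14,304 m1 to m5 it had 222, 225, 199, 167 and 187 CPM. The UK 14,304 libraries lay below the DMSO libraries without overlap, as was the case for 1.78% of all genes tested. The norepinephrine m4 library was above 3 of the 4 HCl libraries. The log2 fold changes were -0.19 (SE 0.088, edgeR adjusted p = 0.592) after norepinephrine and -0.23 (SE 0.0881, adjusted p = 0.252) after UK 14,304. Spink4, Tff3 and Guca2a have the shortest exon lengths of the members, 477, 493 and 594 bases. With length trends removed, their log2 fold changes after UK 14,304 were -0.30, -0.15 and -0.12, against -0.38, -0.23 and -0.20 before.

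Muc2, the mucin itself, had fold changes near or above 0. Its level was 222, 279.5, 275 and 243 CPM in HCl m1 to m4 and 223, 325, 229, 253 and 248 CPM in norepinephrine m1 to m5. In DMSO m1 to m4 it had 243, 281, 305 and 237 CPM, and in UK 14,304 m1 to m5 it had 265, 296, 281, 294 and 293 CPM. The groups overlapped in both comparisons. The log2 fold change of Muc2 was 0.00 (95% confidence interval -0.15 to 0.16, edgeR adjusted p = 0.992) after norepinephrine and 0.11 (-0.05 to 0.26, adjusted p = 0.499) after UK 14,304. Within numbers it was higher than the vehicle in 3 of 4 for both agonists, with m3 the exception each time.

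The proteins that Muc2 is packed with differed among themselves. Zg16, a lectin-like protein that binds bacterial cell wall, had a log2 fold change of -0.16 (SE 0.0614, edgeR adjusted p = 0.56) after norepinephrine and -0.21 (SE 0.0614, adjusted p = 0.111) after UK 14,304. Fcgbp, a large cysteine-rich protein that binds to the mucin, had -0.08 after both (SE 0.0592 and 0.0593, adjusted p = 0.656 and 0.516), and Clca1, a secreted metalloprotease of the gel, had -0.10 and -0.07 (SE 0.0531 and 0.0529, adjusted p = 0.592 and 0.534). Zg16 and Fcgbp were lower than the vehicle in 4 of 4 numbers after UK 14,304 and in 3 of 4 after norepinephrine. For Clca1 this was so in 3 of 4 and 2 of 4. Group ranges of these 3 genes overlapped, since each group spans a wide range between m numbers: Zg16 ran from 166 to 307 CPM in DMSO and from 140 to 250.4 CPM in UK 14,304.

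Guca2a, whose peptide product drives chloride and fluid secretion through the receptor guanylate cyclase C, had log2 fold changes of -0.21 (SE 0.0748, edgeR adjusted p = 0.556) after norepinephrine and -0.20 (SE 0.0746, adjusted p = 0.228) after UK 14,304. The transcription factor Creb3l1 ran from 41.4 to 57.4 CPM in HCl and from 36.6 to 43.4 CPM in norepinephrine libraries, with a log2 fold change of -0.22 (SE 0.055, edgeR adjusted p = 0.33). After UK 14,304 it ran from 37.2 to 45.2 CPM against 43.1 to 51.8 CPM in DMSO, a log2 fold change of -0.18 (SE 0.0545, adjusted p = 0.124), and it was lower in 4 of 4 numbers, by -0.20 to -0.13. Spdef was the member of lowest level, 13.1 to 18.8 CPM over all libraries. Its log2 fold changes were -0.22 (SE 0.0964, edgeR adjusted p = 0.584) and -0.07 (SE 0.0959, adjusted p = 0.749), and the within-number ratios were below 0 in 3 of 4 and 4 of 4. The UK 14,304 m5 library, which has no vehicle of its number, held the highest Spdef value of all, 18.8 CPM.

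**Figure D2:**
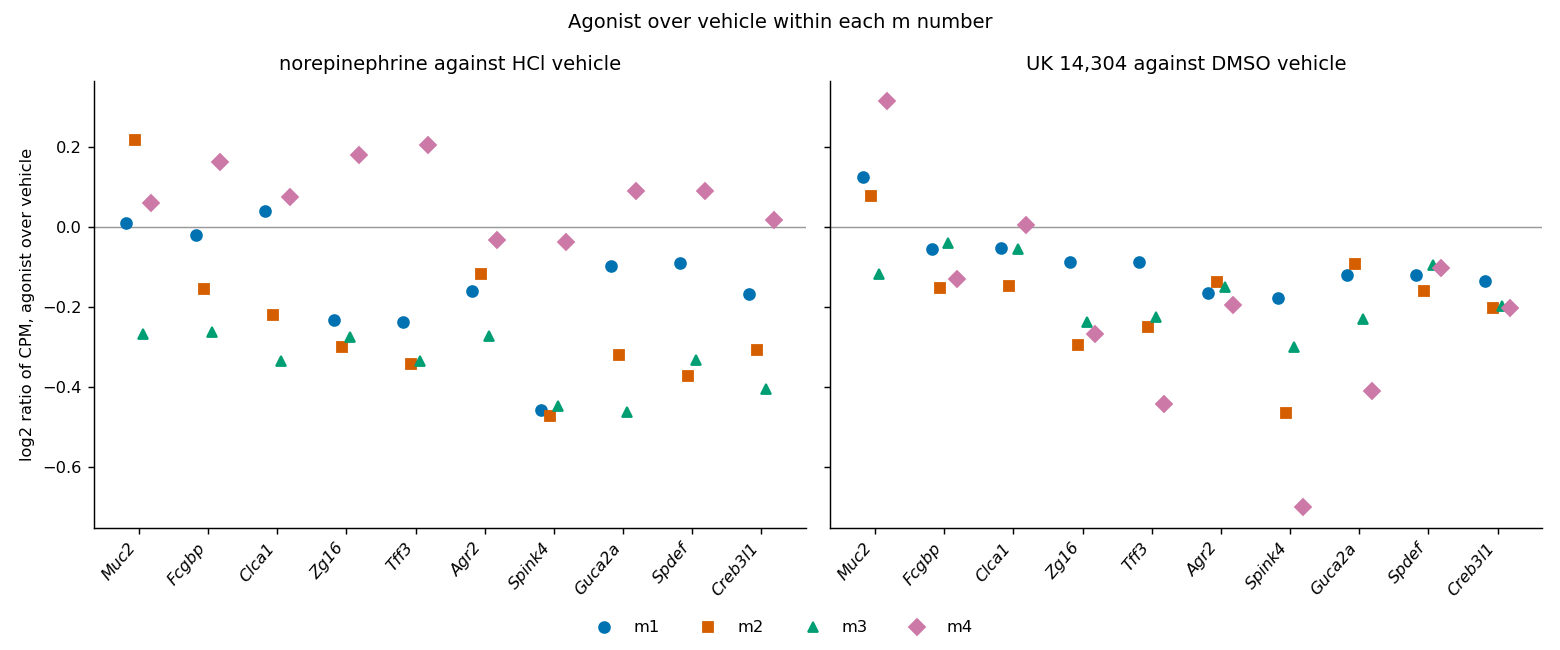
Log2 ratio of CPM, agonist over the vehicle with the same m number, for each member after norepinephrine (left) and UK 14,304 (right), 4 numbers each; the grey line marks no difference. In m4 after norepinephrine 8 of 10 members lie above 0, whereas Spink4 after UK 14,304 has its lowest ratio, -0.70, in m4.

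The number of members called after norepinephrine ran from 0 to 9 as single libraries or whole m numbers were left out. The number of all genes called ran from 4 to 2529 in the same fits. The fit without the norepinephrine m4 library is given here in detail. Without it, and with the block, 8 of the 10 members fell after norepinephrine, against 7.55% of the 15161 genes then tested that fell and 16.7% called in either direction. These were Spink4 (log2 fold change -0.47, edgeR adjusted p = 0.000481), Spdef (-0.33, 0.00652), Tff3 (-0.31, 0.000273), Guca2a (-0.29, 0.00255), Creb3l1 (-0.26, 0.00255), Zg16 (-0.23, 0.00106), Agr2 (-0.16, 0.00458) and Fcgbp (-0.14, 0.0194). Clca1 had -0.12 (adjusted p = 0.126) and Muc2 0.00 (adjusted p = 1.00). The same library took part in the estimate of spread for the other agonist: without it, 6 members fell after UK 14,304 (Zg16, Tff3, Agr2, Spink4, Guca2a and Creb3l1), against 4.27% of the genes tested that fell and 8.08% called in either direction, at log2 fold changes from -0.39 for Spink4 to -0.15 for Agr2. When only UK 14,304 and DMSO libraries were fitted, 5 members fell (Zg16, Tff3, Agr2, Spink4 and Guca2a), against 2.09%. Counts of all genes called moved likewise: without the norepinephrine m4 library they were 2529 and 1225, against 16 and 186 with it. The ribosomal RNA share of that library was 1.98%, against 0.37, 0.464 and 0.313% in norepinephrine m1 to m3 and 1.83% in m5. In HCl it was 2.02% in m4 and 0.414, 0.346 and 0.377% in m1 to m3. The norepinephrine m4 library was singled out by the members' own values. The counts without it therefore describe how the result depends on it and are not independent support for a fall. What sets the library apart was not tested.

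**Figure D3:**
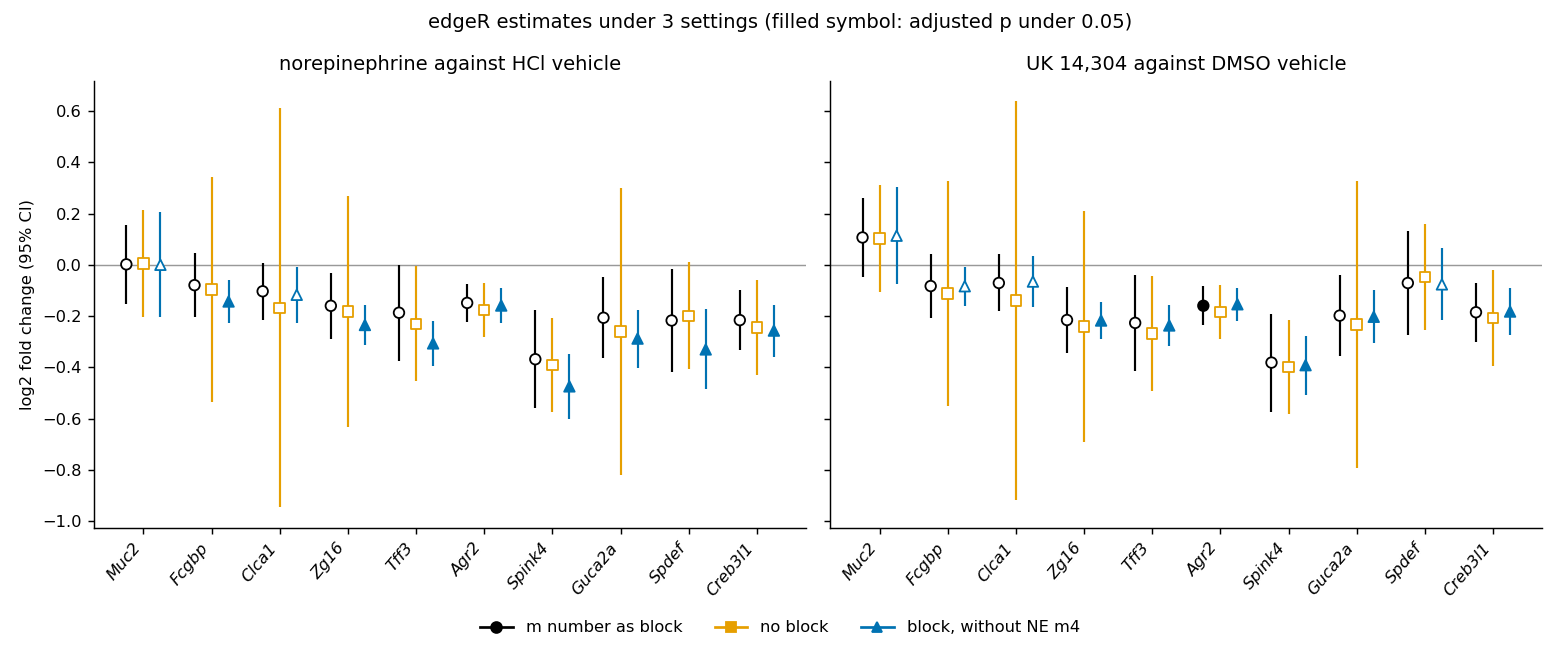
Log2 fold change of each member with its 95% confidence interval under 3 settings of the edgeR model: with the m number as block, with no block, and with the block but without the norepinephrine m4 library; filled symbols have an adjusted p under 0.05. With the block, 1 symbol is filled (Agr2 after UK 14,304), and without norepinephrine m4, 8 and 6 are filled.

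The second comparison asked whether the 2 agonists differed in their effect on the members. The difference of the log2 fold changes, UK 14,304 minus norepinephrine, lay between -0.06 for Zg16 and 0.15 for Spdef, and no member passed (edgeR adjusted p = 1.00 for each), nor did any other gene (0% called). At an unadjusted p under 0.05 no member was called either, against 2.66% of all genes tested. The intervals still allow differences of some size. For Agr2 the 95% confidence interval was -0.11 to 0.09, for Muc2 -0.11 to 0.32, for Spink4 -0.28 to 0.25 and for Spdef -0.13 to 0.42. The 2 agonists came in different vehicles, and the HCl and DMSO libraries were compared as a check. No member passed (edgeR adjusted p = 1.00 for each, log2 fold changes HCl over DMSO of -0.06 to 0.07), and 0% of all genes passed, while 1.82% had an unadjusted p under 0.05.

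More members were called between m numbers than between an agonist and its vehicle. A test of all number terms in the same model, added after the data were seen, called 6 of 10 members, against 13.8% of all genes tested. Clca1 had 382 CPM on average in m2 (n = 4, from 354 to 420) and 148 CPM in m3 (n = 4, from 134 to 169), a ratio of 2.57 (F = 175, edgeR adjusted p = 3.88e-11). The m2 and m3 values of Clca1 lay outside the range of all other numbers. These numbers were picked as those with its highest and lowest mean, and the share of all genes that separate in this way was not counted. Fcgbp and Zg16 followed the same order, with means of 3113 and 281 CPM in m2 and 1850 and 159.5 CPM in m3 (edgeR adjusted p = 5.57e-07 and 6.78e-07).

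Guca2a ran the other way. It had 108 CPM in m3 (n = 4, from 89.2 to 123) and 57.7 CPM in m2 (n = 4, from 51.4 to 64.1), a ratio of 1.88 (edgeR adjusted p = 7.2e-07). Creb3l1 was also highest in m3, at 49.4 CPM against 37.1 to 41.2 CPM on average in the other numbers (edgeR adjusted p = 0.00336). Agr2 passed too (edgeR adjusted p = 0.0366), with a mean of 220.0 CPM in m3 and 182 CPM in m5, a number with agonist libraries only. Its call was lost with the ribosomal RNA share as a covariate (0.0505), with no filter on low counts (0.218), and when any 1 of HCl m3 or m4, DMSO m2 to m4, norepinephrine m1, m2 or m5, or UK 14,304 m2, m3 or m5 was left out (from 0.0506 to 0.129). With all m3 libraries left out, Guca2a (edgeR adjusted p = 0.137), Creb3l1 (0.998) and Agr2 (0.328) did not pass. Muc2 (adjusted p = 0.0623), Tff3 (0.202), Spdef (0.603) and Spink4 (0.729) did not pass. Without norepinephrine m4, 9 of 10 members passed between numbers, against 23.6% of all genes tested, with Tff3 (edgeR adjusted p = 7.34e-06), Spdef (0.0353) and Spink4 (0.036) among them and Muc2 (0.132) the exception.

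**Figure D4:**
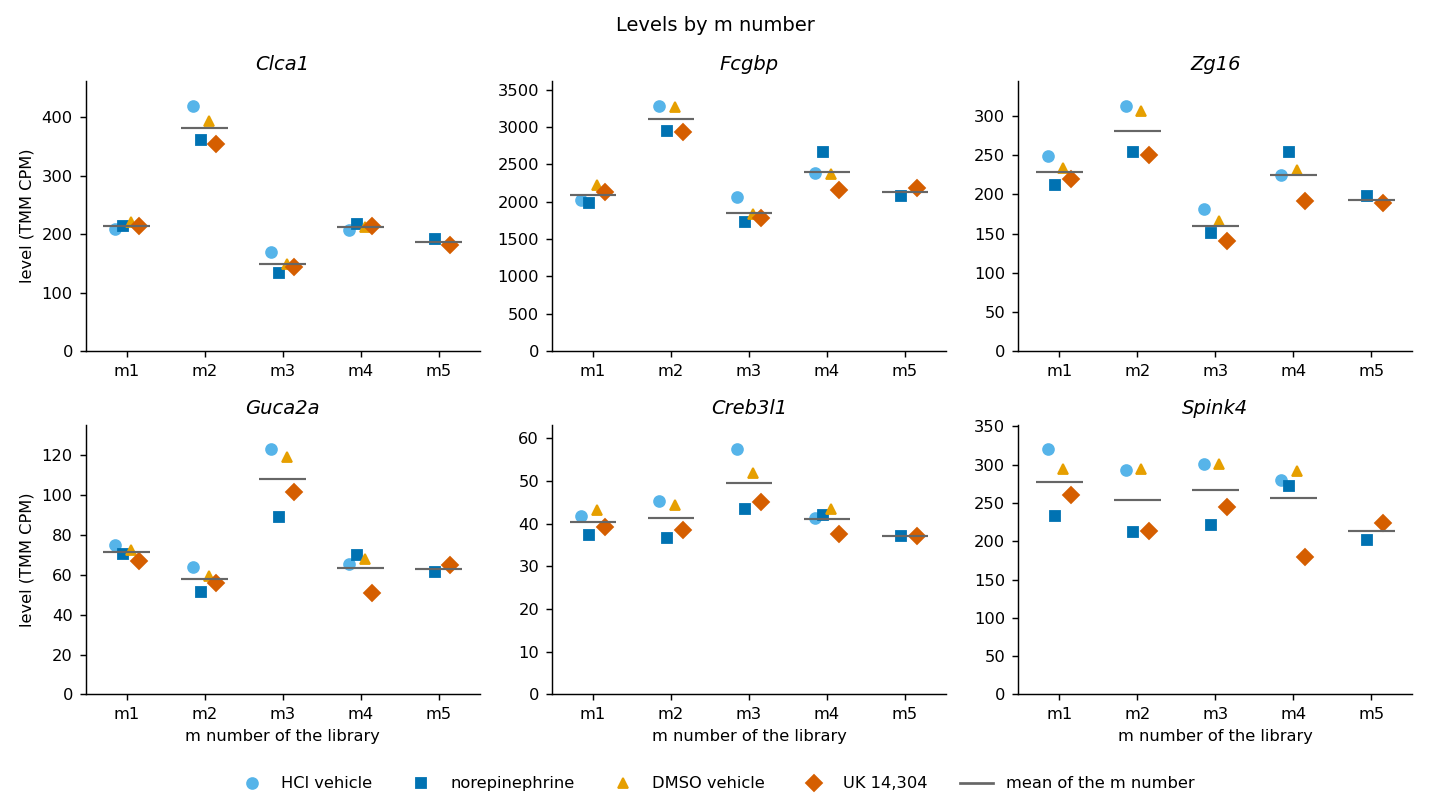
Level in TMM CPM of 6 members by m number (4 libraries each for m1 to m4, 2 for m5), with symbols for the group and a grey bar for the mean of the number, on linear axes from 0. Clca1, Fcgbp and Zg16 are highest in m2 and lowest in m3, Guca2a is highest in m3, and the Spink4 agonist libraries lie below the vehicle libraries of their number in m1 to m4.

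Markers of some other cell types also differed between numbers. In the same test, 5 of 6 stem cell, 4 of 4 enterocyte, 6 of 6 Paneth cell and 3 of 5 enteroendocrine markers passed. Of the tuft cell, non-epithelial and pan-epithelial markers, 0 of 2, 1 of 3 and 0 of 5 passed, against 13.8% of all genes tested. The summed level of the 4 enterocyte markers was 6005 to 7059 CPM in m3 and at least 8590 CPM in each library of the other numbers. The 6 stem cell markers summed to 5472 to 6843 CPM in m3 and 3933 to 4820 CPM in m2. The 6 Paneth cell markers summed to 1988 to 2432 CPM in m2 and 2729 to 3571 CPM in m3. Whether the cell makeup of the cultures set the levels of Clca1, Fcgbp, Zg16 and Guca2a was not tested.

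Across the 18 libraries, members were also compared by the correlation of their log2 CPM. It was 0.944 between Fcgbp and Clca1, 0.897 between Clca1 and Zg16, and 0.882 between Fcgbp and Zg16. It was 0.849 between Agr2 and Creb3l1, 0.827 between Guca2a and Creb3l1, 0.815 between Agr2 and Spink4 and 0.79 between Tff3 and Spink4. Tff3 also had 0.715 with Agr2, 0.684 with Zg16, 0.617 with Fcgbp and 0.56 with Clca1. Clca1 and Guca2a had -0.685, and Muc2 had its highest value, 0.368, with Fcgbp. These are descriptions over libraries that share m numbers and treatments. The 8 other genes closest to the mean of the scaled members were Hid1 (r = 0.907), Efhd2 (0.893), Il4ra (0.892), Neu1 (0.882), Ddr1 (0.871), Qsox1 (0.87), Fam83h (0.865) and Grn (0.861). Of single members, Guca2a was closest to Selenom and Atoh1 (0.933 each), and Spink4 was closest to Rplp0 (0.955); these were looked up after the values were seen.

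The wider goblet cell program was read from lists of genes. Of 20 other goblet cell genes 18 were tested, and Best2 and Retnlb had at most 1 count in any library. None of the 18 passed in either comparison, and 14 had a log2 fold change below 0 in each, with medians of -0.08 after norepinephrine and -0.13 after UK 14,304. Over all genes tested, 52.7% were below 0 after norepinephrine and 51.3% after UK 14,304. The closest to the threshold were Oit1 (log2 fold change -0.18, edgeR adjusted p = 0.053) and Slc12a8 (-0.23, 0.0581) after UK 14,304. Of 20 genes of mucin folding and export from the endoplasmic reticulum, all tested, none passed. In this list 17 and 18 genes were below 0, with medians of -0.10 and -0.09, and Qsox1, a sulfhydryl oxidase of the secretory pathway, was nearest to the threshold (-0.24, edgeR adjusted p = 0.0514 after UK 14,304), followed by Kdelr2, a receptor that returns proteins to the endoplasmic reticulum (-0.14, 0.0946).

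Genes that build the sugar chains of mucins lay on both sides of 0. Of 25 listed, 24 were tested, 12 and 15 were below 0, and the medians were 0.00 and -0.03. One passed: B4galnt2, which adds the terminal sugar of the Sda antigen, fell from 267 ± 26.5 CPM in DMSO (SD, n = 4) to 231 ± 20.7 CPM after UK 14,304 (SD, n = 5), a log2 fold change of -0.19 (SE 0.0345, edgeR adjusted p = 0.00657). Of 12 regulators of secretory and goblet cell fate none passed. Klf4, a factor of goblet cell differentiation, had log2 fold changes of -0.16 after norepinephrine and -0.19 after UK 14,304 (edgeR adjusted p = 0.584 and 0.244), and Elf3, an epithelial factor of the Ets family, had -0.10 and -0.14 (0.614 and 0.258). Atoh1, which commits progenitors to the secretory lineage and was picked for that role after the values were seen, had -0.13 after each (0.617 and 0.405). Of 13 tested genes of granule release and mucus processing none passed. Mep1b, a subunit of the protease meprin β, which cuts Muc2, had 0.02 and 0.12 (edgeR adjusted p = 0.856 and 0.123), and Cftr, the chloride and bicarbonate channel needed for mucus to unfold, had 0.16 and 0.20 (0.589 and 0.216).

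Among mucins other than Muc2, 7 of 10 were tested, and the gastric and airway mucins Muc5ac and Muc5b had at most 5 counts in any library. Muc3, a membrane mucin of the brush border, fell after UK 14,304 (log2 fold change -0.31, SE 0.074, edgeR adjusted p = 0.0495), from 163 ± 38.9 CPM in DMSO (SD, n = 4) to 137 ± 31.9 CPM (SD, n = 5). This adjusted p lay just under the threshold. Muc3a, a separate gene of the list, had -0.11 after UK 14,304 and did not pass (edgeR adjusted p = 0.6075). Among 14 tested relatives of the members, Clca3b, of the same family as Clca1, rose from 1434 ± 139 to 1728 ± 154 CPM after UK 14,304 (log2 fold change 0.28, SE 0.0406, edgeR adjusted p = 0.00179), where Clca1 had -0.07.

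Beside the goblet cell genes, markers of Paneth cells, the other granule-filled secretory cell of the crypt, were also lower. All 6 were below 0 after both agonists, against 52.7% of all genes tested after norepinephrine and 51.3% after UK 14,304. After norepinephrine 2 of 6 passed, against 0.105% of all genes tested, and after UK 14,304 3 of 6, against 1.22%. Lyz1, which encodes lysozyme, fell by 0.37 on the log2 scale after norepinephrine (edgeR adjusted p = 0.0019) and by 0.31 after UK 14,304 (0.0031), and the α-defensin Defa22 fell by 0.69 and 0.70 (0.0062 and 0.00208). Ang4, an antimicrobial ribonuclease, fell by 0.27 after UK 14,304 (edgeR adjusted p = 0.022) and had a log2 fold change of -0.29 after norepinephrine (0.0702). Lyz1 and Defa22 have close relatives in the genome, and reads shared with these were not counted, so their levels are uncertain. Without the block none of the list genes passed after either agonist. None of the 6 stem cell, 4 enterocyte, 5 enteroendocrine, 2 tuft cell (of 4 listed), 3 non-epithelial (of 6 listed) or 5 pan-epithelial markers passed. For stem cell, enterocyte and enteroendocrine markers in this order, the medians were 0.04, -0.07 and 0.03 after norepinephrine and 0.01, -0.14 and -0.06 after UK 14,304. Those of the tuft cell, non-epithelial and pan-epithelial markers were 0.07, 0.28 and -0.07 after norepinephrine and 0.13, 0.34 and -0.06 after UK 14,304. The summed Paneth markers ran from 2309 to 3571 CPM in DMSO and from 2017 to 3002 CPM in UK 14,304 libraries, so these groups overlapped. Whether the makeup of secretory cells moved with the goblet cell genes was not tested.

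Without norepinephrine m4, calls in the lists went both ways. After norepinephrine, 4 of 18 other goblet cell genes fell, 7 of 20 folding and export genes fell and 1 rose, and 4 of 24 sugar chain genes fell and 3 rose. Of the fate regulators 2 fell, of the granule release genes 1 fell and 2 rose, of the relatives 1 fell and 2 rose, and of the other mucins 0 passed. All 6 Paneth markers, 1 enterocyte marker and 3 of 5 pan-epithelial markers fell, 1 stem cell marker rose, and 0 enteroendocrine, tuft cell or non-epithelial markers passed.

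After UK 14,304, in the same fit, 4 other goblet cell genes and 6 folding and export genes fell, and 4 sugar chain genes fell and 1 rose. Of the fate regulators 1 fell, of the granule release genes 3 rose, of the relatives 1 rose, and of the other mucins 1 fell and 1 rose. All 6 Paneth markers and 1 enterocyte marker fell, 1 stem cell marker rose, and 0 of the other markers passed. These counts stand against the shares of all genes given above for the fit without that library.

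**Figure D5:**
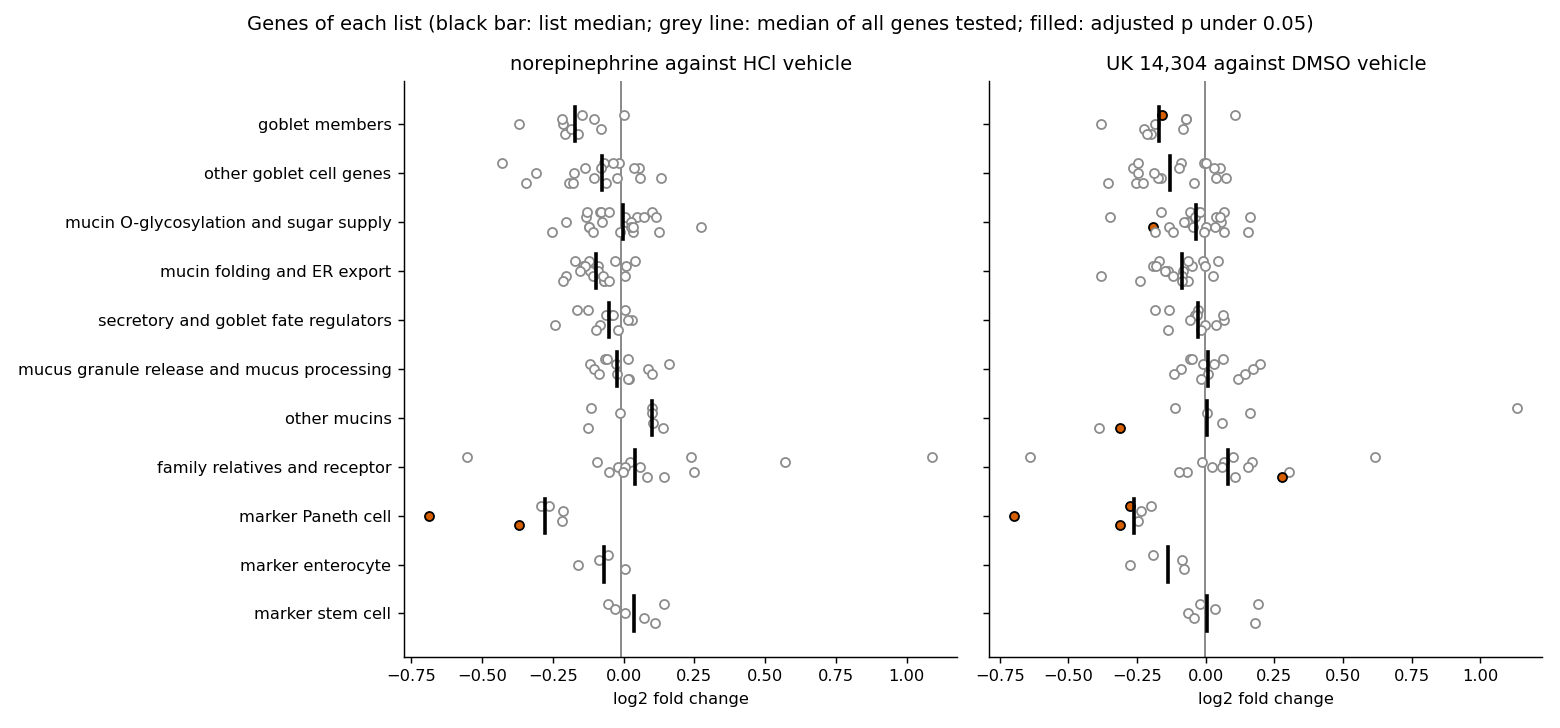
Log2 fold change of the genes of each list after norepinephrine (left) and UK 14,304 (right), 1 point per gene; black bars are list medians, the grey line is the median of all genes tested, and filled points have an edgeR adjusted p under 0.05. The 10 goblet members have a median of -0.17 in both, next to -0.28 and -0.26 for the Paneth markers.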

How the data were processed

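RNA-seq was measured in 18 libraries of mouse small intestinal organoids, sequenced as 50-base single reads. The authors aligned the reads with STAR 2.7.3 to GRCm38 and deposited raw counts per gene. Per the file header the counts were made with featureCounts 2.0.1 and Ensembl 102, without strand and without reads that map to several places or genes, whereas the methods name Subread 1.6.4. The table has 55487 genes, 55141 with a symbol, and 163 of 164 listed genes were matched. Totals were 21866149 to 27850373 counts, and precision was most limited for Spdef, with the lowest counts.

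The counts were fitted as deposited with edgeR 4.0.16 in R 4.3.3 (TMM, filterByExpr, robust quasi-likelihood), with a term per group and per m number, over all 18 libraries. The standard error is the log2 fold change divided by the square root of F. P-values were adjusted over 15247 genes with a threshold of 0.05. Log2 CPM used a prior count of 2. The m number was set as a block with the choice of members, and libraries of the same number did deviate together from their group means (r = 0.119 to 0.431 for norepinephrine and HCl, 0.155 to 0.52 for UK 14,304 and DMSO, against means of -0.0704 and -0.0864 for different numbers). The labels do not say what the number marks. The script was tested on simulated counts. Alternatives were no block, other filters, DESeq2 1.42.0, each agonist with its vehicle alone, GC and length trends removed (lowess span 0.3), the ribosomal RNA share as covariate, and leaving out each library or number. Near-identical stretches were searched with blastn 2.17.0 (50 bases, 95% identity).

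The members and gene lists were chosen with earlier results of these data known. All 10 members are named. Of each other list of goblet or mucus genes, those past the threshold were named (at most 4, by adjusted p) or, where none passed, the 2 with the smallest p after UK 14,304. Of markers, those that passed were named, and the epithelial and non-epithelial ones were named for their counts. Muc3a was named beside Muc3 after the values were seen. The 8 genes with the highest correlation to the members' mean were named too. Leaving out each library was an alternative for all 18, but the norepinephrine m4 library was singled out after the members' values were seen. The test between m numbers, the likeness to single members and the choice of promoters to print came after the values were seen.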

Additional observations from a re-analysis of the deposited data

Results flagged for a closer look

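Of 40 sets of libraries (10 members in 4 groups), 3 held a library far from the rest by Dixon's criterion, which chance gives in about 1 of 20 sets. Clca1 was 419.8 CPM in HCl m2, where the nearest other HCl library had 208.2 and the farthest 168.5 CPM. Creb3l1 was 51.75 CPM in DMSO m3, against 43.08 to 44.39 CPM in the other DMSO libraries. Creb3l1 was 45.15 CPM in UK 14,304 m3, against 37.17 to 39.24 CPM in the other UK 14,304 libraries. In each case the other groups had their highest Clca1 value in m2 and their highest Creb3l1 value in m3 as well.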

How the results depend on the processing

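Without the replicate block, 0 members and 0 genes in all passed after norepinephrine, and 0 members and 6 genes after UK 14,304, against 0 and 16 and 1 and 186 with it. DESeq2 with no block called 0 and 47 genes in all. The norepinephrine member count was 2 with no filter on low counts, 1 with DESeq2 and the block and 1 with GC trends removed, with 153, 29 and 31 genes in all. Leaving out libraries or numbers gave 0 to 9 members and 4 to 2529 genes. The UK 14,304 member count was 5 with no filter, 2 with at least 10 counts in every library, 2 with DESeq2 and the block, 5 with only UK 14,304 and DMSO, 2 with GC trends removed, 0 with the ribosomal RNA share and 0 at a threshold of 0.01. Of these, the counts over all genes were 627 with no filter, 525 with the pair alone, 626 with GC trends removed, 88 with the ribosomal RNA share and 91 at 0.01. For the filter of at least 10 counts and for DESeq2 with the block, no count over all genes is given here. The member counts of these settings therefore cannot be set against a share of all genes. Leaving out libraries or numbers gave 0 to 6 members and 23 to 1225 genes. The difference between agonists, with 0 genes, had 24 with no filter, 1 with at least 10 counts, 1 with DESeq2 and the block, 1 with length trends removed, and 0 to 12 with libraries left out. The vehicles, with 0, had 17 with no filter. With no filter, edgeR p-values between numbers were far smaller for Clca1 (1.644e-198 against 3.308e-14) and larger for Agr2 (0.02477 against 0.004604). The counts of calls from the fit with no filter should therefore be read with caution. The 2110 genes called between numbers became 3701 with GC trends removed and 1335 at 0.01, and 545 to 4459 with libraries left out, where 4 to 9 members passed. The cause was not tested in any of these.

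Some log2 fold changes turned sign, none of which had passed the test, and the cause was not tested. They were Muc2 after norepinephrine (-0.0112 with length trends removed, -0.0035 with the ribosomal RNA share, and -0.079 to 0.0915 with libraries left out), Fcgbp after norepinephrine (0.0035 with GC trends removed) and Spdef after UK 14,304 (0.0049 with GC trends removed). For the difference between agonists they were Fcgbp (0.0453), Tff3 (0.0358) and Spink4 (0.0492) with the ribosomal RNA share, Agr2 (0.0053) and Spink4 (0.0159) with length trends removed, and Guca2a (-0.0043) with no filter. With libraries left out, that difference ran from -0.0816 to 0.0706 for Fcgbp, -0.0479 to 0.0764 for Clca1, -0.111 to 0.0532 for Zg16, -0.0902 to 0.121 for Tff3, -0.0564 to 0.0308 for Agr2, -0.0979 to 0.1545 for Spink4, -0.0583 to 0.1421 for Guca2a and -0.0355 to 0.1023 for Creb3l1. HCl over DMSO was 0.010 and 0.0520 for Tff3 with length trends removed and with the ribosomal RNA share. With libraries left out it ran from -0.1146 to 0.0131 for Muc2, -0.042 to 0.0643 for Fcgbp, -0.0173 to 0.0846 for Clca1, -0.0512 to 0.0211 for Tff3, -0.0059 to 0.0449 for Agr2, -0.0232 to 0.0397 for Spink4 and -0.0355 to 0.062 for Creb3l1.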
